A study of Mus musculus with 2 samples.

Results

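SR proteins are splicing factors that hold RNA-binding domains and a tail rich in arginine and serine. Here 10 genes of this family and its relatives were described in the mouse adrenal gland: Srsf1, Srsf2, Srsf3, Srsf4, Srsf5, Srsf6, Srsf7, Srsf9, Srsf10 and Srsf11. They were chosen by symbol from the 16945 annotated genes with a read, and all 10 were read in both libraries. RNA of the whole gland of female B6CASTF1/J mice, hybrids of C57BL/6J and CAST/EiJ, was sequenced as long reads at 36 days of age. No treatment or added allele is named. The 2 libraries form 1 group, numbered as biological replicates 1 and 2, so nothing here compares conditions. Replicate 1 was made from 1 µg of RNA, and no amount is given for replicate 2. The labels name the same animal for both libraries in one field and different animals in another, so the spread and every p-value refer to these 2 libraries and may be technical.

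SR proteins bind exonic enhancer sequences, help the spliceosome choose splice sites and, in several cases, carry mature mRNA out of the nucleus. Many SR genes control their own output through a poison exon, a cassette exon that brings a stop codon ahead of the usual one. A transcript with a stop well upstream of its last exon junction is a classic substrate of nonsense-mediated decay, the surveillance pathway that degrades such mRNA after a round of translation. Retention of an intron in the same place can have the same consequence or keep the transcript in the nucleus. A long read shows the whole exon chain of a molecule, so that coding, poison exon and intron-retaining molecules of a gene can be counted directly.

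The sequences that turn each coding frame into a stop are given first, because the poison exons and the retained introns in coding parts are described by them. Each starts at the first base of the extra exon or retained intron, runs 5′ to 3′ on the coding strand and ends 20 bases past the stop. Capitals mark the first in-frame stop codon, read in the frame of the annotated protein. Bases are those of GENCODE M21 transcripts on mm10, the build of the deposited files, and so carry C57BL/6J letters. No base was read from the libraries.
Srsf3 poison exon, chr17:29039454-29039507, plus strand: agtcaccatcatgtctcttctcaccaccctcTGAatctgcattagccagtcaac
Srsf4 first poison exon, chr4:131884276-131884410, plus strand: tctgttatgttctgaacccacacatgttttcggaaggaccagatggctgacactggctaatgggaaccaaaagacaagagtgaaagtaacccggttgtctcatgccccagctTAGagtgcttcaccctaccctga
Srsf5 poison exon, chr12:80948129-80948199, plus strand: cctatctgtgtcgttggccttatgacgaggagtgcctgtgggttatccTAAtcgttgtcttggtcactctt
Srsf6 poison exon, chr2:162932815-162932986, plus strand: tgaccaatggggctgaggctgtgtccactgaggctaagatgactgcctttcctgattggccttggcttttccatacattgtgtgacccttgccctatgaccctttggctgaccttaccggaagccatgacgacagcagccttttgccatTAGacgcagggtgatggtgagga
Srsf9 poison exon, chr5:115331450-115331480, plus strand: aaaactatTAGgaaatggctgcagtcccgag
Srsf11 poison exon, chr3:158023290-158023359, minus strand: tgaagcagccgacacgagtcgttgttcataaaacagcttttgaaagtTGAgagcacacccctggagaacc
Srsf1 retained intron, chr11:88049216-88049289, plus strand: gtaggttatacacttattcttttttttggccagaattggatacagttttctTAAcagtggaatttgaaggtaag
Srsf5 retained intron, chr12:80947866-80947894, plus strand: gtttgtTGAaatacagttttgagatattt
Srsf7 retained intron, chr17:80205154-80205261, minus strand: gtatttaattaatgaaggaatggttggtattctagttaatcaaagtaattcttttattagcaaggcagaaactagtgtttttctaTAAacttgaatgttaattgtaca
The 3 retained introns open with the GT of a normal donor site, and in Srsf5 the stop follows within 7 bases of it. In the poison exons the stop begins between base 9, in Srsf9, and base 150, in Srsf6.

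Replicate 1 held 1223776 reads, of which 1144572 fell on annotated genes, and replicate 2 held 453761, of which 414588 did, a 2.76-fold difference in depth. Levels are reads per 1000000 reads of annotated genes (CPM). A long read is counted once whatever the transcript's length, so CPM was compared between genes without dividing by length. Whether longer transcripts were read less often was not tested, and the main transcripts ran from 1162 nt in Srsf9 to 5362 nt in Srsf1. A count of 0 allows up to 2.62 CPM in replicate 1 and 7.24 CPM in replicate 2, taking 3 reads as the floor. Models of the classes Known (annotated), NIC (new combinations of annotated splice sites) and NNC (with a new splice site) were taken as full-length. Those were 1425 of 1618 reads of the 10 genes in replicate 1 (88.1%) and 390 of 457 in replicate 2 (85.3%). Markers of the adrenal cortex summed to 53562 and 70936 CPM in replicates 1 and 2, and those of the medulla to 9774 and 6597 CPM, with every marker of both lists read in both. Kidney markers came to 0.874 and 2.41 CPM, with 3 of 4 at 0 in both. Liver markers came to 16.6 CPM in replicate 1 and 0 reads in replicate 2.

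All 10 genes together made up 1414 CPM in replicate 1 and 1102 CPM in replicate 2 (mean 1258 ± 220 CPM, SD, n = 2). Srsf2, a factor that activates many exons, was the highest, with 257 CPM in replicate 1 and 219 CPM in replicate 2 (238 ± 26.4 CPM). Srsf3, the smallest family member and also an mRNA export adaptor, had 255 CPM in replicate 1 and 135 CPM in replicate 2 (195 ± 84.9 CPM). Srsf9, a small relative of Srsf1, stood at 189 and 193 CPM in replicates 1 and 2 (191 ± 3.00 CPM). Srsf3 overlapped with both of the others, while Srsf2 was above Srsf9 in each library, on 91 against 80 reads in replicate 2. Over full-length reads alone Srsf9 was the higher in replicate 2, with 78 reads against 73 for Srsf2.

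Srsf5, which has a pair of RNA-binding domains, had 209 CPM in replicate 1 and 89.2 CPM in replicate 2 (149 ± 84.5 CPM). Srsf6, of the same subgroup, had 134 CPM in replicate 1 and 104 CPM in replicate 2 (119 ± 21.2 CPM). Srsf7, which also holds a zinc knuckle, was nearly equal in replicates 1 and 2 at 114 and 113 CPM (114 ± 0.769 CPM). The libraries of these genes interleaved as well. Srsf4, the family member with the longest tail, had 94.4 CPM in replicate 1 and 86.8 CPM in replicate 2 (90.6 ± 5.32 CPM), below Srsf7 in both libraries, although on 36 against 47 reads in replicate 2.

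The lower end of the order held 3 genes at similar levels. Srsf1, the founding member of the family, had 56.8 CPM in replicate 1 and 57.9 CPM in replicate 2 (57.3 ± 0.777 CPM), below Srsf4 in both. Srsf11, an SR-related protein, had 51.5 CPM in replicate 1 and 60.3 CPM in replicate 2 (55.9 ± 6.19 CPM). Srsf10, a relative of the Tra2 proteins that represses splicing when dephosphorylated, had 53.3 CPM in replicate 1 and 43.4 CPM in replicate 2 (48.4 ± 6.99 CPM). Srsf11 overlapped with both of the others, and Srsf1 was above Srsf10 in each library, on 24 against 18 reads in replicate 2. Exons of opposite-strand genes overlap Srsf1 (Gm11508), Srsf2 (Mettl23 and Mfsd11) and Srsf4 (Gm12992), and how strand was used in counting is not stated here, so these 3 levels are less certain.

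**Figure D1:**
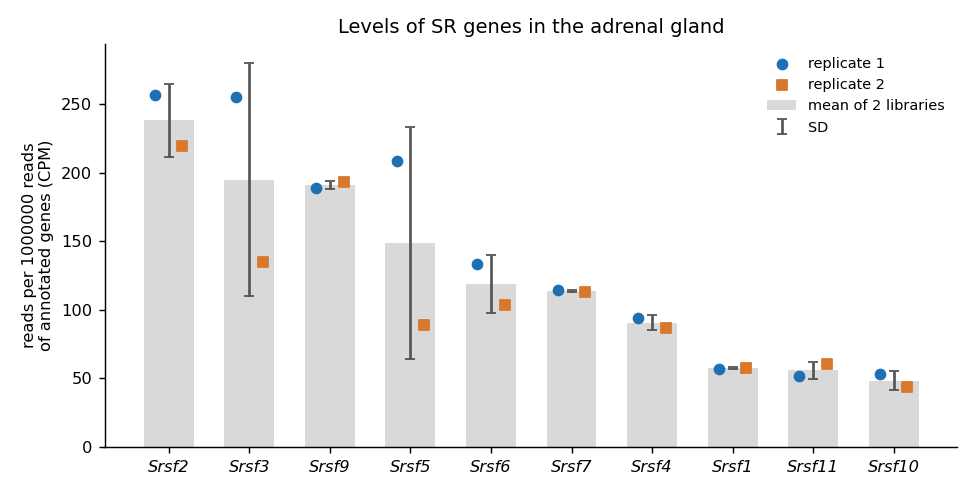
Levels of the 10 SR genes in CPM (reads per 1000000 reads of annotated genes), ordered by mean; grey bars are means of 2 libraries, error bars SD, circles replicate 1 and squares replicate 2. Srsf2 leads at 238 CPM, and the libraries are farthest apart for Srsf3 and Srsf5.

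Each full-length molecule was then placed in a class by its exon chain. Coding molecules end at the stop of an annotated protein-coding transcript, with no exon junction more than 50 nt downstream. A start codon was not required. Thus a 2-exon Srsf11 transcript annotated as retained-intron, with 2 reads in each library, counted as coding, as did 1 such read of Srsf3 in replicate 1. Poison exon molecules hold an extra exon inside an intron of the main coding transcript and an early stop more than 50 nt before the last junction, the distance at which decay is usually triggered. Retained-intron molecules cover a whole intron of the main coding transcript. Transcripts annotated as retained-intron that cover no such whole intron are therefore not in this class, among them further ones of Srsf11. Smaller classes have an annotated stop but a junction farther than 50 nt downstream, or an early stop of another origin. Over all 10 genes, coding molecules were 81.5% in replicate 1 and 82.8% in replicate 2 (82.2 ± 0.903%). Poison exon molecules were 62 of 1425 in replicate 1 (4.35%, 95% Wilson interval 3.41 to 5.54%) and 24 of 390 in replicate 2 (6.15%, 4.17 to 8.99%). Retained introns were in 135 reads of replicate 1 (9.47%, 8.06 to 11.1%) and 32 of replicate 2 (8.21%, 5.87 to 11.4%). Srsf5 alone supplied 90 of the 135 retained-intron reads of replicate 1. The other 9 genes had 45 retained-intron and 57 poison exon reads in replicate 1, and 27 and 20 in replicate 2. A junction well past an annotated stop was found in 2.11% of molecules in replicate 1 and 1.03% in replicate 2. These intervals cover counting error only, and in bulk tissue fewer cells that make a molecule cannot be told apart from less of it per cell.

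The genes fell along a wide range of coding share. Srsf9, Srsf3, Srsf6 and Srsf2 were mostly coding, at 94.1 ± 2.94%, 93.0 ± 2.20%, 90.0 ± 0.0501% and 89.1 ± 0.0401% (SD, n = 2). Srsf10 stood at 88.1 ± 5.11%, Srsf4 at 80.0 ± 8.08%, Srsf11 at 77.8 ± 17.3% and Srsf7 at 67.8 ± 7.86%. Srsf5 at 53.5 ± 2.93% and Srsf1 at 49.1 ± 4.19% were lowest, with nearly every other molecule not coding by these criteria. The molecules outside the coding class differed. They were mainly those with extra exons in Srsf4, Srsf6, Srsf3 and Srsf9. Retained introns came in Srsf5, Srsf7, Srsf1 and Srsf2, and junctions beyond the stop in Srsf2 and Srsf1. In Srsf2 such molecules still ended at its usual stop. Srsf11 had as many poison exon molecules as molecules of no named class, 5 of 29 each in replicate 1 and 1 of 20 each in replicate 2.

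**Figure D2:**
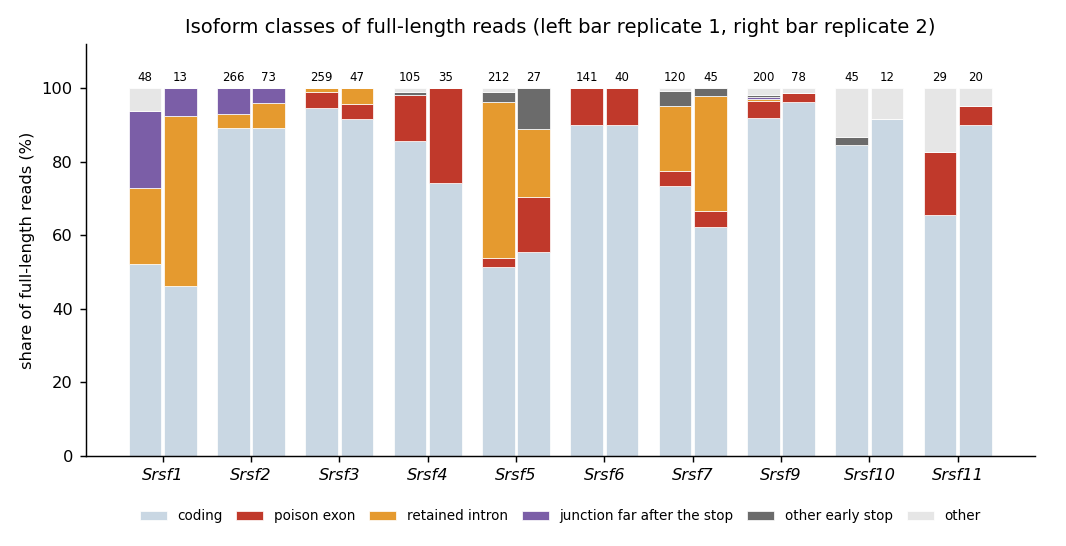
Share of full-length reads (%) in each isoform class for the 10 genes, left bar replicate 1 and right bar replicate 2, with the number of full-length reads above each bar. Poison exons (red) are seen in 7 genes, and retained introns (orange) take the largest non-coding share in Srsf5 and Srsf7 in both libraries.

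Poison exons with at least 5 full-length reads numbered 8 in 6 genes, from 90 to 534 nt long. The annotation already lists 7 of the 8 as exons, and 6 are of a length divisible by 3, which by length alone keeps the frame. In 6 of the 8, a different set, the first in-frame stop lies in the exon itself, between 252 and 1011 nt ahead of the last junction. The rest were the 184-nt and 174-nt exons of Srsf4, read only in molecules that also held its 207-nt exon with the stop. Their GC content ran from 45.3 to 57.1%, against 35.5 to 40.0% in 4 retained introns whose bases were all covered by annotated transcripts.

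Srsf4 on chromosome 4 had the largest poison share in the mean of the libraries (19.0 ± 9.43%, SD, n = 2), while in replicate 1 the share in Srsf11 was higher. Its poison molecules were 13 of 105 full-length reads in replicate 1 (12.4%, 7.38 to 20.0%) and 9 of 35 in replicate 2 (25.7%, 14.2 to 42.1%). Its large first intron held a string of 3 extra exons of 207, 184 and 174 nt, and the most read poison molecule carried all 3, with 8 reads in replicate 1 and 6 in replicate 2. Every poison molecule of Srsf4 held the 207-nt exon, chr4:131884276-131884482. Its TAG, shown above, starts at base 113 and ends the frame after 73 of 491 codons, 1011 nt before the last junction. The 184-nt exon was in 11 reads of replicate 1 and 9 of replicate 2, and the 174-nt exon in 12 and 6. The whole chain is not in the annotation, although each exon is.

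In Srsf6 the poison share hardly moved between libraries, with 14 of 141 reads in replicate 1 (9.93%, 6.01 to 16.0%) and 4 of 40 in replicate 2 (10%, 3.96 to 23.1%). The 268-nt exon, chr2:162932815-162933082, lies in intron 2 and was in 13 reads of replicate 1 and 4 of replicate 2. Its TAG begins at base 150, after 135 of 339 codons and 534 nt before the last junction. The most read molecule with it was a transcript annotated as a decay substrate, with 13 and 3 reads in replicates 1 and 2. The same stop also ends an annotated protein-coding transcript, so the annotation holds both readings.

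Srsf3 carried its poison exon in 11 of 259 reads in replicate 1 (4.25%, 2.39 to 7.44%) and 2 of 47 in replicate 2 (4.26%, 1.17 to 14.2%). The exon, chr17:29039454-29039909, is 456 nt long, lies in intron 3 and belongs to 1 transcript, annotated as a decay substrate. Its TGA at base 32 follows 124 of 164 codons, 548 nt before the last junction. No other poison molecule of Srsf3 was read. Retained introns were in 3 further reads of replicate 1 and 2 of replicate 2.

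Srsf9 and Srsf11 gave fewer reads. Srsf9 had 9 poison molecules of 200 in replicate 1 (4.50%, 2.39 to 8.33%) and 2 of 78 in replicate 2 (2.56%, 0.706 to 8.88%). Its 90-nt exon, chr5:115331450-115331539, was in 7 reads of replicate 1, all of 1 unannotated chain, where the TAG at base 9 follows 120 of 222 codons and lies 252 nt before the last junction. The 2 reads of replicate 2 belong to an annotated transcript, which holds another extra exon upstream and ends earlier, so the libraries share the exon but not the molecule. In Srsf11 poison molecules were 5 of 29 in replicate 1 (17.2%, 7.60 to 34.5%) and 1 of 20 in replicate 2 (5%, 0.888 to 23.6%). The 117-nt exon, chr3:158023243-158023359 on the minus strand, was in 4 of those 5 reads in replicate 1 and in the 1 of replicate 2. In the chain read most, which does not hold the start codon of the main transcript, its TGA at base 48 lies 530 nt before the last junction.

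Srsf5 and Srsf7 each had rare poison exons inside the intron that was otherwise retained. The 534-nt exon of Srsf5, chr12:80948129-80948662, was in 4 reads of replicate 1 and 2 of replicate 2, and it is the 1 poison exon of the 8 that the annotation does not list. It ends the frame after 138 of 269 codons with the TAA at base 49. Together with shorter versions, poison molecules were 5 of 212 in replicate 1 (2.36%, 1.01 to 5.40%) and 4 of 27 in replicate 2 (14.8%, 5.92 to 32.5%). A further 6 of 212 reads in replicate 1 and 3 of 27 in replicate 2 also ended after 138 codons. They held no separate extra exon and were counted as early stops of another origin. Srsf7 had 5 of 120 in replicate 1 (4.17%, 1.79 to 9.38%) and 2 of 45 in replicate 2 (4.44%, 1.23 to 14.8%), spread over exon versions of which none reached 5 reads. Another Srsf7 chain, with 4 reads in replicate 1 and 1 in replicate 2, ended after 137 codons, as several of these did. It held no separate extra exon and was counted as an early stop of another origin. No full-length molecule of Srsf1, Srsf2 or Srsf10 held an extra exon with an early stop. With 48 full-length reads in replicate 1 and 13 in replicate 2 for Srsf1, the Wilson upper limits were 7.41% and 22.8%. For Srsf10, with 45 and 12 reads, they were 7.87% and 24.2%, and for Srsf2, with 266 and 73 reads, 1.42% and 4.999%. The limits for Srsf2 do not cover an extra exon beyond its usual stop, which the definition of poison exon molecules leaves out. An annotated decay substrate with such an exon, described below, had 4 of 266 reads in replicate 1 and 0 of 73 in replicate 2.

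Retention of intron 5 of Srsf5, chr12:80947866-80949094 (1229 nt), had the most reads of any poison exon or retained intron in replicate 1. In replicate 2 events in Srsf7 (14 reads), Srsf4 (9) and Srsf1 (6) had more reads and higher shares. Intron 5 of Srsf5 was kept in 90 of 212 full-length reads of replicate 1 (42.5%, 36.0 to 49.2%) and 5 of 27 of replicate 2 (18.5%, 8.18 to 36.7%). Reading into the intron meets the TGA at base 7, after 124 of 269 codons and 1405 nt before the last junction. The reads were spread over 12 molecules. Of these, an unannotated one of 7 exons led with 54 reads in replicate 1 and 3 in replicate 2, against 61 and 9 for the main coding transcript.

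Srsf7 retained intron 3, chr17:80204388-80205261 on the minus strand (874 nt), in 21 of 120 reads of replicate 1 (17.5%, 11.7 to 25.3%) and 14 of 45 of replicate 2 (31.1%, 19.5 to 45.7%). The TAA at base 86 follows 157 of 238 codons, 1062 nt before the last junction. A later intron of Srsf7, chr17:80202745-80204121 (1377 nt), was kept in 3 reads of each library. Srsf5 and Srsf7 differed between libraries in opposite directions, and in neither did the difference pass the test over all genes given below.

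**Figure D3:**
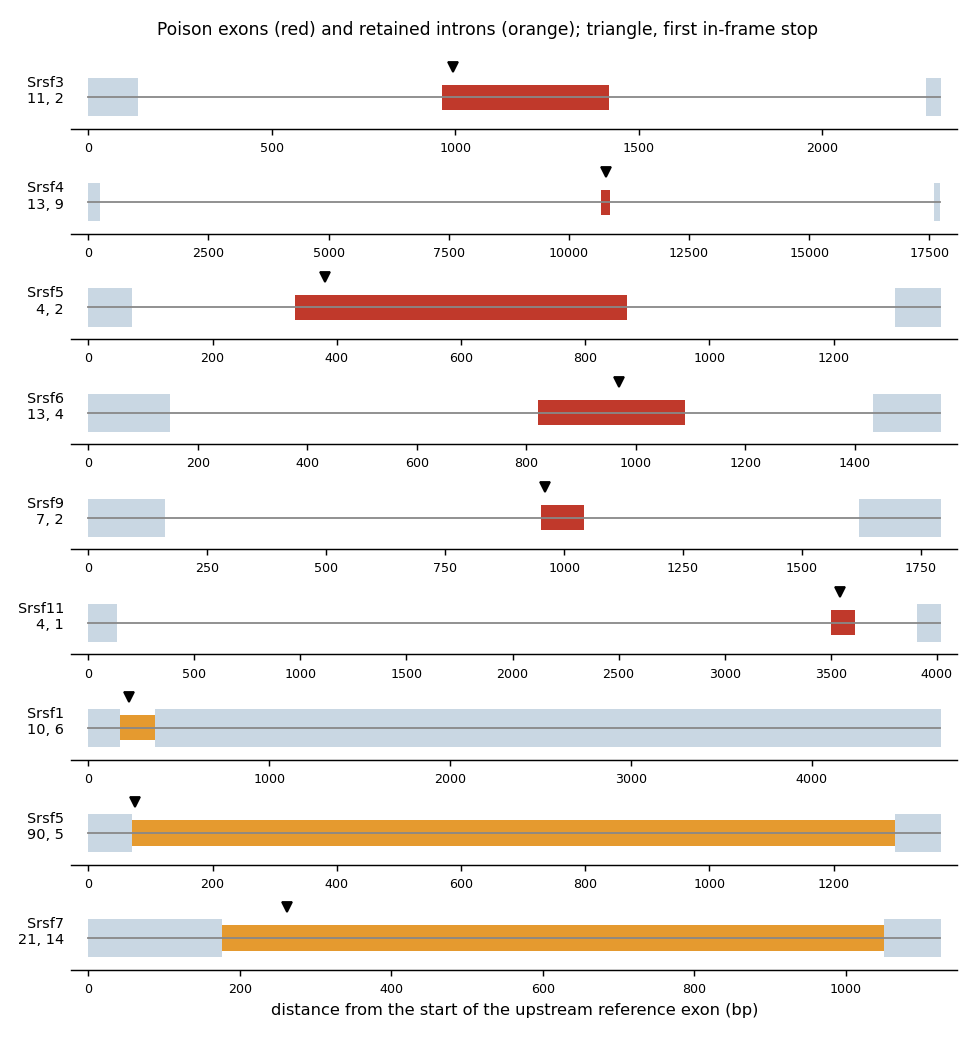
Exons of the main coding transcript (blue) on either side of each poison exon (red) or retained intron (orange) that holds the first in-frame stop (triangle), drawn to scale within each panel as distance in bp from the start of the upstream exon; numbers under each gene are reads in replicates 1 and 2. The stop lies 9 bases into the Srsf9 exon and 7 bases into the Srsf5 intron, and near the middle of the exon in Srsf4 and Srsf6. Of the Srsf4 exons, the one that holds the stop is drawn.

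Srsf1 and Srsf2 differed from the rest at their 3′ ends. In Srsf1 intron 3, chr11:88049216-88049411 (196 nt), was kept in 10 of 48 reads of replicate 1 (20.8%, 11.7 to 34.3%) and 6 of 13 of replicate 2 (46.2%, 23.2 to 70.9%). The TAA at base 52 ends the frame after 201 of 248 codons. That stop is also the end of an annotated protein-coding transcript, but in the molecule read most, with 7 reads in replicate 1 and 6 in replicate 2, a further intron was removed downstream, and the stop lay 826 nt ahead of the last junction. Another 10 molecules of Srsf1 in replicate 1 and 1 in replicate 2 had a junction more than 50 nt past an annotated stop. In replicate 1, 6 of them were of a 2-exon transcript annotated as retained-intron, which lacks the start codon. The remaining 4 held the whole frame of 248 codons. The 1 of replicate 2 ended at another annotated stop, after 253 codons.

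Among full-length reads, Srsf2 had no retained intron or extra exon in its coding part. Its main transcript made up 237 of 266 full-length reads in replicate 1 (89.1%) and 65 of 73 in replicate 2 (89.0%), and its stop lies 7 nt before the last junction. The intron beyond the stop, chr11:116850962-116852020 on the minus strand (1059 nt), was kept in 10 reads of replicate 1 (3.76%, 2.05 to 6.78%) and 5 of replicate 2 (6.85%, 2.96 to 15.1%). Removal of a second intron in this region put a junction 113 nt past the stop in 15 reads of replicate 1 and 1 of replicate 2. An annotated decay substrate of Srsf2 with an extra exon beyond the stop, chr11:116851648-116851751 (104 nt), had 4 of 266 reads in replicate 1 and 0 of 73 in replicate 2, and an incomplete model with the same exon had 2 and 1. Its junctions reach 217 nt past the normal stop. With this and other such molecules, the class came to 19 reads in replicate 1 (7.14%, 4.62 to 10.9%) and 3 in replicate 2 (4.11%, 1.41 to 11.4%).

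Among coding molecules, 6 genes made nearly one protein: Srsf1, Srsf2, Srsf3, Srsf4, Srsf6 and Srsf9 had at least 96.0% of coding reads in each library on the same length of open frame. Srsf10 is known in 2 forms that differ in the length of the tail. The shorter, of 182 or 183 codons, had 26 of 38 coding reads in replicate 1 (68.4%) and 7 of 11 in replicate 2 (63.6%), and the longer, of 261 or 262 codons, had 12 and 4. Srsf7 split its coding reads between its main annotated transcript of 238 codons, with 39 reads in replicate 1 and 12 in replicate 2, and another of 235 codons, with 30 and 10. Srsf5 put 88 coding reads in replicate 1 and 13 in replicate 2 on a frame of 269 codons, and 21 and 2 on one of 270. The leading model of Srsf11, of 511 codons, had 9 reads in replicate 1 and 8 in replicate 2.

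Whether such events are common in the tissue was described over the 2848 genes that reached 20 full-length reads in both libraries, counting every extra internal exon and retained intron against the main annotated transcript of each gene. Srsf1 and Srsf10 had fewer reads than that in replicate 2, which left 8 of the 10 genes. The share of molecules with an extra exon had a median of 6.45% over these 8 genes and 0% over all genes, where 61.4% of genes had none. The median share with a retained intron was 1.48% in the 8 genes and 0% over all. For either event, the medians were 11.4% in the 8 genes and 0.746% over all, and 32.2% of all genes had neither. No test was made of these medians. Srsf5 had a mean share of 39.1%, and 1.79% of all genes had a larger one, followed by Srsf7 with 28.6% (3.30% of genes larger), Srsf4 with 19.0% (5.69%), Srsf11 with 12.8% (8.39%) and Srsf6 with 9.96% (10.6%). Srsf3 with 6.96% (14.2%), Srsf2 with 6.06% (16.2%) and Srsf9 with 3.78% (22.9%) lay nearer to the bulk, still above the median of all genes.

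**Figure D4:**
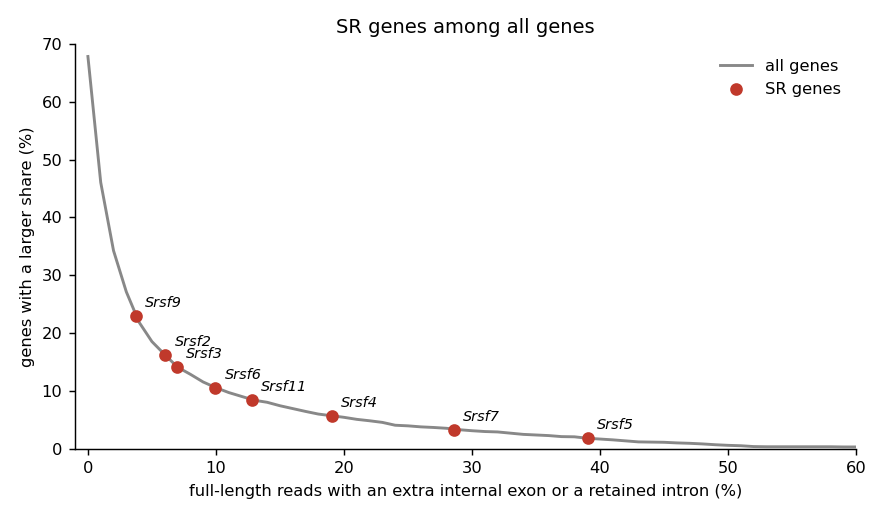
For each share of full-length reads with an extra internal exon or retained intron (x axis, %, mean of 2 libraries), the percentage of genes with a larger share (y axis) over 2848 genes (grey line), with the 8 SR genes that had enough reads in red. Srsf5 lies farthest right at 39.1% and Srsf9 farthest left at 3.78%.

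The 2 libraries were compared gene by gene against counting error, by an exact binomial test (two-sided) on TMM-scaled library sizes, adjusted by Benjamini-Hochberg over 9885 genes. Of the 10 genes, 2 passed the threshold of 0.05, both higher in replicate 1. Of all 9885 genes 14% passed in either direction, with 6.13% of the 9885 higher and 7.86% lower in replicate 1. Counted in either direction, the members are near the share of genes in general. In the upward direction alone 2 of 10 is above 6.13%, but 10 genes are too few to read this further, and it was not tested. Srsf5 had 239 reads in replicate 1 and 37 in replicate 2, a log2 ratio of 1.15 (2.21-fold, adjusted p = 2.1e-05, exact binomial). Srsf3 had 292 reads in replicate 1 and 56 in replicate 2, a log2 ratio of 0.84 (1.79-fold, adjusted p = 0.00048, exact binomial). The other 8 ratios lay between -0.29 in Srsf11 and 0.29 in Srsf6. Over full-length reads alone that of Srsf11 was -1.03 (adjusted p = 0.074, exact binomial). The median was 0.10 over the 10 genes and 0.0074 over all genes. Skeletal muscle markers moved the same way, with 822 CPM in replicate 1 and 4.82 CPM in replicate 2 over 4 genes of which 2 were read in both, and adipocyte markers the other way, with 3621 and 6824 CPM. Their part in the result was not tested.

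Isoform make-up was compared next. The leading isoform's share of full-length reads was compared by Fisher's exact test over 3015 genes, of which 1.06% passed, and 0 of the 8 genes with enough reads did. None had an unadjusted p under 0.05 either, and the lowest was 0.13 in Srsf4, with 85.7% in replicate 1 and 74.3% in replicate 2. The same test of the share with an extra exon called 0 of 8 genes, against 0.0702% of 2848, and of the share with a retained intron 0 of 8, against 0.386%. In Srsf5 the unadjusted p was 0.011 for extra exons and 0.021 for the retained intron, both with an adjusted p of 1 in the exact test. Srsf5 had 27 full-length reads in replicate 2, which limits this test.

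Other genes of the pathway came from a list of 42, of which 40 were read in both libraries and 37 had enough reads for the binomial test. Of these 37, 4 were higher and 1 was lower in replicate 1, and 32 did not pass, against the same 6.13% higher and 7.86% lower over all genes. Of the other SR and SR-like genes, 3 of 11 were higher. Tra2b, a splicing activator that binds next to SR proteins, had 125 reads in replicate 1 and 6 in replicate 2 (log2 ratio 2.76, adjusted p = 1.3e-08, exact binomial). Its paralog Tra2a had 44 and 2 reads (log2 ratio 2.70, adjusted p = 0.0036, exact binomial). Srrm2, a large scaffold of nuclear speckles, had 213 and 15 reads (log2 ratio 2.26, adjusted p = 8.9e-12, exact binomial), but over full-length reads alone its log2 ratio was 0.48 with an adjusted p of 0.94 in the exact binomial test. Son, another speckle scaffold, was the highest of this role at 153 ± 35.4 CPM.

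Of 6 factors that recognise splice sites, 1 passed. Snrnp70, the U1 particle's protein that contacts SR proteins, had 221 reads in replicate 1 and 34 in replicate 2 (log2 ratio 1.15, adjusted p = 5.9e-05, exact binomial) and was the highest of them at 138 ± 78.5 CPM. Its log2 ratio was 2.81 over full-length reads alone. None of 7 tested kinases and importers of SR proteins passed, and the highest, Clk2, which phosphorylates their tails, had 55.6 ± 3.25 CPM. The muscle-type kinase Srpk3 had 0 reads in both libraries. The export receptor Nxf1 had 46.3 CPM in replicate 1 and 28.9 CPM in replicate 2. Of 12 tested genes of nonsense-mediated decay and the exon junction complex, 1 passed: Casc3, a component of that complex, had 6 reads in replicate 1 and 20 in replicate 2 (log2 ratio -3.04, adjusted p = 2e-06, exact binomial), and over full-length reads alone its log2 ratio was -4.37. Eif4a3, the helicase that anchors the complex on RNA, was the highest of the 42 genes, with 309 CPM in replicate 1 and 256 CPM in replicate 2. All 15 genes of this group summed to 722 and 726 CPM in replicates 1 and 2.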

How the data were processed

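Adrenal gland RNA of 1 group of 2 libraries was analysed from the authors' deposited counts of whole reads per transcript model. The counts are not normalized, per the file headers, and each library has its own table and annotation of exons, both on mm10 (GRCm38). The annotation names TALON as the source of models and classes. The aligner, tool versions, filters and the use of strand are not stated in those sources. Members, gene lists and tests were chosen with earlier results of these data known.

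Gene counts were sums over models, and CPM used reads of annotated genes without spike-ins. The coding reference of each member was its annotated protein-coding transcript with the most reads, and frames were followed on GENCODE M21 transcript sequences. A molecule with both a poison exon and a retained intron counted as poison exon (1 each in Srsf6 and Srsf7). No genome was used. TMM factors came from edgeR 4.0.16 (R 4.3.3) over genes of 10 reads or more. Log2 ratios are replicate 1 over replicate 2 on CPM with a pseudocount of 1. Tests used SciPy 1.17.1 and compare these libraries only. The binomial test was checked on simulated counts that varied by counting error alone, and the detection of exon events on made-up exon chains. Fisher's exact test was not checked in this way. The tests of extra exon and retained intron shares between libraries were added after the shares were seen. Intervals (95% Wilson) and floors cover counting error only, since no molecular identifiers are known. Total reads were 1223776 and 453761.

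Named were all members, their leading models, every poison exon or retained intron with at least 5 full-length reads, and pathway genes that passed the test or led their role. Srpk3, the extra exon of Srsf2, the rarer exon versions of Srsf5 and Srsf7 and the other smaller events were chosen after their values were seen. Marker lists had 4 genes each. Alternatives changed the scaling, the filters, the reads or models counted, the depth and the libraries.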

Additional observations from a re-analysis of the deposited data

Results flagged for a closer look

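Reads of the incomplete class, left out of every share above, held 1 signal for an SR gene in both libraries. An incomplete Srsf2 model of 2 exons that keeps the intron beyond the stop had 17 reads in replicate 1 and 9 in replicate 2, more than the 10 and 5 full-length reads that keep it. It drew attention because it lies outside the full-length classes and exceeds the 3 reads taken as the floor. Counted with all spliced models, the retained-intron share of Srsf2 was 13.0%, against 5.30% over full-length reads alone (means of 2 libraries).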

How the results depend on the processing

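Srsf3 and Srsf5 passed the test between the libraries under each of the 6 alternatives in scaling, filter, reads counted and depth, and no other member did. Scaling by total reads changed the split over all genes to 728 higher and 650 lower in replicate 1, against 606 and 777. The class shares depended on the models counted. With Known models alone, coding molecules were 94.3%, poison exons 2.10%, retained introns 2.29% and junctions past the stop 0.566%, by construction without the unannotated chains. Coding was 85.7% over models with at least 2 reads and 79.3% over all spliced models, where retained introns were 10.7%. The median extra exon share of the SR genes was 6.06% over all spliced models, 2.14% over the 2 genes with at least 50 full-length reads, and 4.37 to 4.72% when either library was left out. The median retained share of the SR genes was 2.78% over those 2 genes and 0.829 to 2.13% when either library was left out, against 1.48%. Over all genes it was 0.105% at that minimum and 0.467% over all spliced models. The cause was not tested. Without the Genomic class, the log2 ratios between libraries of Srsf1, Snrnp70, Srrm2 and Casc3 were 0.50, 3.01, 3.20 and -3.81, and that of Casc3 was -3.90 at equal depth. Known models alone took the poison exon share of Srsf4 to 0% and the retained share of Srsf5 to 4.35%. Leaving out either library gave sums of 1102 to 1414 CPM. A test between libraries cannot leave one out. No paired analysis was possible because the libraries form 1 group. Depth limits Srsf1, Srsf10 and Srsf11 most, with 12 to 20 full-length reads in replicate 2.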
